A study of Mus musculus with 5 samples.

Results

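Integrins are the receptors through which epithelial cells hold on to the extracellular matrix, and 8 of their genes were followed here. They are Itga2, Itga3, Itga5, Itgav, Itgb1, Itgb3, Itgb5 and Itgb6, taken as the rows that carry these symbols among the 18384 gene rows of the plates, and each was present as 1 row in all 5 plates. The cells came from organoids of MMTV-PyMT mammary tumors, a mouse model in which the mouse mammary tumor virus promoter switches on polyoma middle T in mammary epithelial cells, so that both groups carried the same oncogene. All organoids had first been kept in BME, a basement membrane extract, in a serum-free medium with B27, N-acetyl-L-cysteine and FGF2. They were then embedded either in BME again, which the labels class as not permitting invasion, or in Collagen I, and were taken after 5 days. Single live cells were sorted into 384-well plates and their transcripts were counted by SORT-seq, which gives each molecule a random tag, the UMI. The plates analysed here were BME replicates 1, 2 and 3 and Collagen I replicates 1 and 3, and a further Collagen I plate of the design was not analysed here. The sources do not tie the plates to separate cultures or animals, so p-values measure the spread between plates, which may be technical.

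An integrin is a pair of 1 alpha and 1 beta chain, and the pair decides which matrix protein is bound. The alpha 2 chain (Itga2) pairs only with beta 1 (Itgb1) and forms a receptor for fibrillar collagen. The alpha 5 chain (Itga5), also with beta 1, forms the classical fibronectin receptor. The alpha 3 chain (Itga3), again with beta 1, is best known as a laminin receptor of epithelial cells, although it has often been listed among receptors for collagen and fibronectin. The alpha v chain (Itgav) has several partners: with beta 3 (Itgb3) it binds vitronectin, fibronectin and osteopontin, with beta 5 (Itgb5) mainly vitronectin, and with beta 6 (Itgb6), a chain of epithelia, it binds fibronectin, tenascin and the latent form of TGF-beta. In the mammary gland, integrin chains are in general richer in the basal layer, which touches the basement membrane, than in the luminal cells inside it.

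The members are protein-coding genes that lie apart from each other on mm10 (GENCODE annotation of GRCm38, the same assembly). Itga2 spans chr13:114833081-114932100 and Itga5 chr15:103344286-103366763, both on the minus strand. Itga3 (chr11:95044474-95076801, minus strand) and Itgb3 (chr11:104608000-104670476, plus strand) share a chromosome. So do Itgav (chr2:83724397-83806916, plus strand) and Itgb6 (chr2:60598292-60722643, minus strand). Itgb1 (chr8:128685654-128733200) and Itgb5 (chr16:33829665-33949338) lie on the plus strand. The files place every member on the same chromosome as the annotation. RefSeq starts with 250 bases of upstream sequence (GRCm38.p6) were held for 7 members, and Itgb3 was not among them. These bases were searched, because the members that rose in Collagen I rose together, for the TEAD motif GGAATG and its reverse complement CATTCC, for the AP-1 motif TGANTCA, which is its own reverse complement, and for the SRF CArG box. The TEAD motif was found in 1 member, Itgb1, beside 12.6% of the 32817 start sites of the table. The CArG box was found at 1 of the 2 starts of Itgb6, beside 1.47% of all starts, and the AP-1 motif at no member, beside 6.75%. The 2 windows that hold a match are given 5′ to 3′ on the strand of the gene, with the motif in capitals. They are chr8:128685624-128685653 (plus strand, the motif 7 to 2 bases before the start) and chr2:60673726-60673755 (minus strand, 50 to 41 bases before the start that lies inside the gene).
Itgb1: aggcgcggctgacgcggcgcggaGGAATGc
Itgb6: tacacctgacttCCTTATAAGGtgaatgag
A match of letters is a description of these windows and says nothing of binding.

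After filtering, 1500 of 1920 wells were kept, 944 on the BME plates and 556 on the Collagen I plates. A well was called basal when Krt5, Krt14 and Krt17, the keratins of the basal layer, together made up at least 5 per 10000 counts, and non-basal when they were under 2. This gave 302 basal and 537 non-basal wells in BME and 226 and 277 in Collagen I, with 158 wells between the limits. The plates differed in depth: kept wells held a median of 21739 to 25603 counts in BME and 2749 to 5106 in Collagen I. The 3 BME libraries shared a flow cell and each Collagen I library had its own, so matrix and sequencing run cannot be told apart. The share of cycling wells (G2/M genes at least 5 per 10000 counts) was 53.8% ± 0.66 (SD, n = 3) in BME and 23.5% ± 2.9 (n = 2) in Collagen I. Epithelial markers (Epcam, Cdh1) were present in all plates, and the 4 immune markers were at 0 in all. The endothelial markers summed to 2.31 to 5.59 CPM (counts scaled to a library of 1e6). The 7 fibroblast markers summed to 29.4 to 36.2 CPM in BME and 109 to 391 CPM in Collagen I. All had counts in both groups, but Lum and Pdgfrb only 1 each in BME. The Collagen I plates differed: replicate 1 held mostly Col1a1 (81.8 CPM), with Col1a2 at 0.70 and Dcn at 2.10 CPM. In replicate 3 Col1a2 was at 135 and Dcn at 72.1 CPM. The part of fibroblast transcripts in the results was not tested. At least 3 fibroblast counts were held by 30 of 302 basal wells in BME and 15 of 226 in Collagen I. Without these wells Itga3, Itgav, Itgb1 and Itgb3 were called in basal wells. The limit is a fixed count and BME wells were deeper, so this fit does not measure that part. Luminal markers in basal wells summed to 804 to 935 CPM in BME and 3036 to 3173 CPM in Collagen I, and their part was not tested. Krt8, Krt18 and Csn3 were higher in Collagen I and Krt19 overlapped. Cd14 was lower there, at 516, 344 and 361 CPM in BME against 275 and 269 CPM. Elf5 was at 0 in Collagen I, but held only 4, 3 and 3 counts on the BME plates.

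The chains fell into abundant and rare ones, and the order depended on the matrix. Levels are CPM of the counts summed over the wells of a class, and because a molecule is counted once at its 3′ end they do not grow with transcript length. In basal wells of BME, Itgb1 (380 ± 31 CPM, SD, n = 3) stood first, followed by Itga3 (242 ± 50), Itgav (142 ± 13) and Itgb5 (70.9 ± 7.5), none of which overlapped with its neighbour. Itga5 (8.18 ± 3.0 CPM) overlapped with both Itgb3 (12.5 ± 3.7) and Itgb6 (6.69 ± 1.8), which were apart from each other, and Itga2 (2.30 ± 1.4) was lowest. In basal wells of Collagen I, Itgb1 (721 ± 56 CPM, n = 2) and Itga3 (702 ± 116) overlapped. Below Itgav (292 ± 74 CPM) came Itgb3 (84.3 ± 35), Itgb5 (70.4 ± 9.2) and Itga2 (50.9 ± 19), which differed by no more than their spread. Itga5 (16.6 ± 4.6 CPM) and Itgb6 (14.1 ± 1.1) were the rarest there. Itga2 thus stood last of 8 in BME and among the middle chains in Collagen I.

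**Figure D1:**
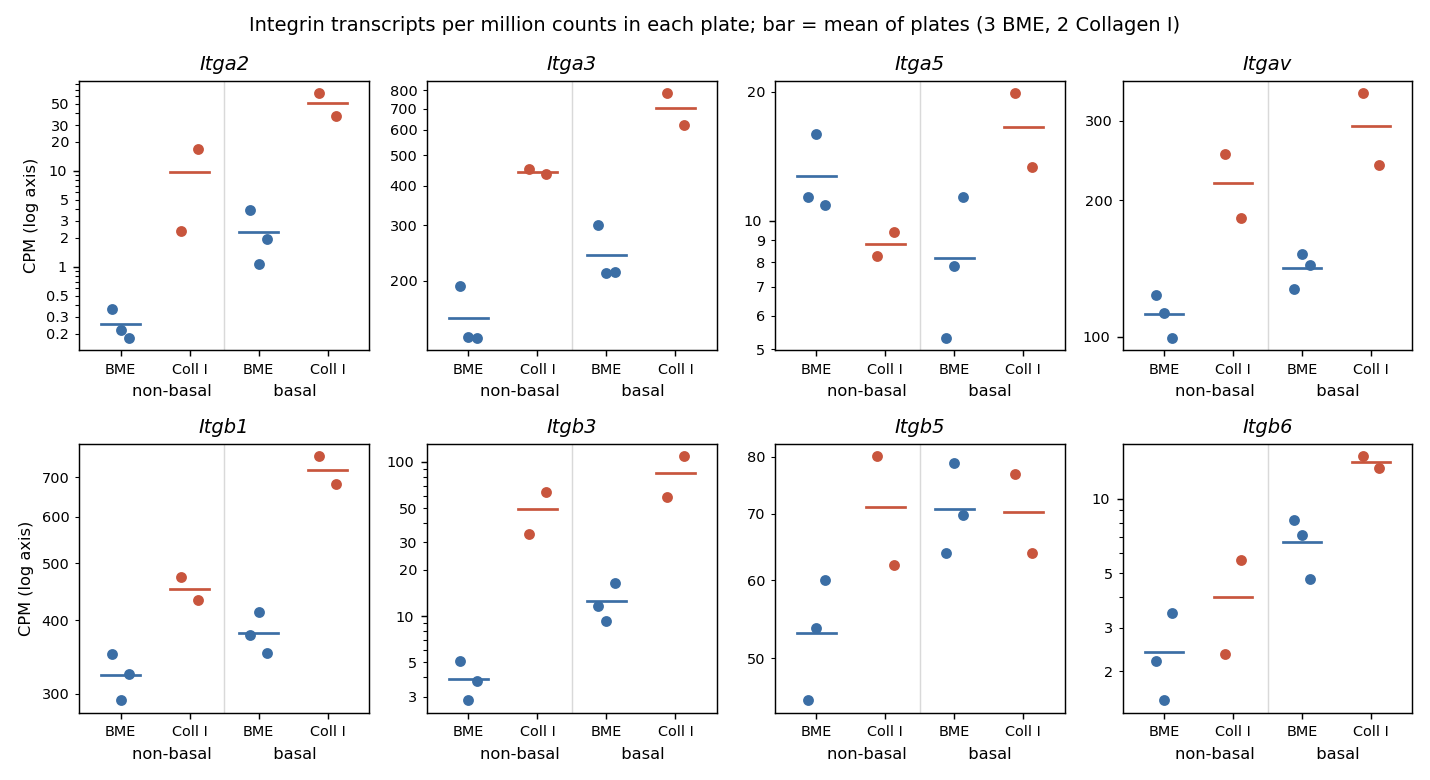
CPM (log axis) of each integrin gene in the non-basal and basal wells of every plate, with BME in blue and Collagen I in red; points are plates and bars are means over 3 BME or 2 Collagen I plates. In basal wells the red points are all higher than the blue ones for every gene except Itgb5.

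The first question was which receptor chains differ between cells in Collagen I and in BME. Genes entered the test if they reached a level of about 10 counts on enough plates, and Itga2 reached it through the Collagen I plates (0 of 3 BME plates reached it in either class and 1 of 3 over all kept wells), so a test of it had to find a difference and it is left out of the counts. Of the 7 other members, edgeR's quasi-likelihood test (adjusted p under 0.05) called 4 higher in basal wells of Collagen I and 0 lower, beside 10.8% of all genes called higher. These were Itga3, Itgav, Itgb1 and Itgb3. In non-basal wells these 4 were again called higher and 0 lower, beside 14.1% of all genes, and over all kept wells the same 4, beside 15.5%. For 6 of these 7 members the 2 Collagen I values in basal wells exceeded all 3 BME values, beside 23.5% of genes. In non-basal wells this held for 5 of 7, beside 26.6%. The median log2 change of the 7 members was 1.08 in basal and 0.60 in non-basal wells, against -0.03 over all genes in each. The non-basal median is the value of Itgb6 (0.60 ± 0.81, SE), which rests on 5 counts in Collagen I, so these medians do not compare the classes.

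Itga2, the collagen-binding alpha chain, was nearly absent in BME. Its basal levels were 3.87, 1.07 and 1.96 CPM in BME replicates 1, 2 and 3, against 64.4 and 37.3 CPM in Collagen I replicates 1 and 3. These levels rest on 16 counts in 14 of 302 wells in BME and 40 counts in 29 of 226 wells in Collagen I, so that every Collagen I plate was far above every BME plate although most wells had no count. As a description, the ratio of the summed counts, scaled to depth, was 23.8, with a 95% interval of 13.0 to 45.5 that covers counting error only. In non-basal wells Itga2 was close to absent in BME, at 0.37, 0.22 and 0.18 CPM, which is 4 counts in 537 wells. The non-basal wells of Collagen I held 2.36 CPM in replicate 1 and 16.9 CPM in replicate 3, from 2 and 9 counts. The plates did not overlap, and the ratio of 31.0 had a counting interval of 9.18 to 133. In these wells Itga2 fell below the filter on low counts in each of the 5 fits that left out 1 plate.

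Itgb1, the common partner of the alpha 2, alpha 3 and alpha 5 chains, changed less than Itga2 but from a much higher level. Its basal levels were 377, 412 and 352 CPM (BME) against 761 and 682 CPM (Collagen I), with plates given in the same order here and for the other genes. The groups did not overlap, and the log2 fold change was 0.96 ± 0.17 (adjusted p = 0.00027). In non-basal wells the values were 351, 292 and 323 CPM against 473 and 433 CPM, a log2 fold change of 0.51 ± 0.15 (adjusted p = 0.018). The non-basal call was lost in the fits without BME replicate 2 (adjusted p = 0.070), BME replicate 3 (0.056), Collagen I replicate 1 (0.16) or Collagen I replicate 3 (0.086), and without the cycling wells (0.10). It was also lost with no filter on low counts (0.050), with wells thinned to 1500 counts (0.084) and with the replicate number as a block (0.072), and was kept in 9 of 18 alternatives. Without 1 plate or without the cycling wells, the log2 change was between 0.40 and 0.60.

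Itga3, the alpha chain of the epithelial laminin receptor, rose to a similar extent in both classes. Its 3 BME plates held 299.6, 212 and 213 CPM in basal wells and the Collagen I plates 784 and 620 CPM, with no overlap. The log2 fold change was 1.58 ± 0.19 (adjusted p = 2.2e-06). In non-basal wells it was 193, 133 and 132 CPM against 451 and 435 CPM, a log2 fold change of 1.55 ± 0.18 (adjusted p = 8.6e-06).

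Itga5, the alpha chain of the fibronectin receptor, was rare and passed the test in neither class. Basal wells held 5.32, 7.84 and 11.4 CPM of it on the BME plates, against 19.8 and 13.3 CPM on the Collagen I plates, the latter from 8 and 5 counts. The plates did not overlap, but the log2 fold change of 1.04 ± 0.54 was not called (adjusted p = 0.19, 95% interval -0.09 to 2.17). In non-basal wells both Collagen I plates (8.25 and 9.41 CPM) lay below the BME plates (11.4, 15.9 and 10.9 CPM), with a log2 difference of -0.52 ± 0.43 (adjusted p = 0.39). The interval of -1.43 to 0.39 holds both no difference and a clear decrease.

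Itgav, the alpha chain shared by the vitronectin receptors, was higher in Collagen I in both classes. The basal levels were 128, 153 and 144 CPM against 345 and 239.6 CPM, a log2 fold change of 1.08 ± 0.18 (adjusted p = 0.00017). In non-basal wells it was 123, 113 and 99.6 CPM against 253 and 183 CPM, a log2 fold change of 0.99 ± 0.17 (adjusted p = 0.00037). The groups overlapped in neither class. With every well thinned to 1500 counts, the basal difference shrank to 0.30 and was no longer called (adjusted p = 0.46).

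The beta partners of alpha v differed in their response. Itgb3, which forms the vitronectin and osteopontin receptor, was found in basal wells at 11.6, 9.27 and 16.5 CPM (BME) against 59.5 and 109 CPM (Collagen I). The log2 fold change was 2.79 ± 0.34 (adjusted p = 2.8e-06). In BME replicate 1 a single well gave 14 of its 24 counts, whereas in Collagen I no basal well held more than 4. In non-basal wells Itgb3 was 5.13, 2.83 and 3.81 CPM against 34.2 and 64.0 CPM, a log2 fold change of 3.58 ± 0.37 (adjusted p = 3.4e-06). The Collagen I plates lay apart from the BME plates in both classes.

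Itgb5, the partner in the other vitronectin receptor, did not pass the test. Basal levels were 63.9, 78.8 and 69.8 CPM against 76.8 and 63.9 CPM, so that the groups overlapped fully. The log2 difference was 0.03 ± 0.24 with a 95% interval of -0.46 to 0.52 (adjusted p = 0.94), and its sign changed with the scaling, being -0.0068 with library size only. In non-basal wells the values were 45.3, 53.7 and 60.0 CPM against 80.2 and 62.1 CPM, a log2 difference of 0.46 ± 0.20 (adjusted p = 0.10) with the plates apart. With basal wells at 10 or more and non-basal wells under 1 keratin count per 10000, this non-basal difference was called (0.60, adjusted p = 0.048). Itgb6, the epithelial partner, was rare. Basal levels were 8.23, 7.13 and 4.71 CPM against 14.9 and 13.3 CPM, the latter from 6 and 5 counts. The log2 difference of 1.12 ± 0.57 was not called (adjusted p = 0.18), nor was that of 0.60 ± 0.81 in non-basal wells (adjusted p = 0.62), where Collagen I held 5 counts in all.

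**Figure D2:**
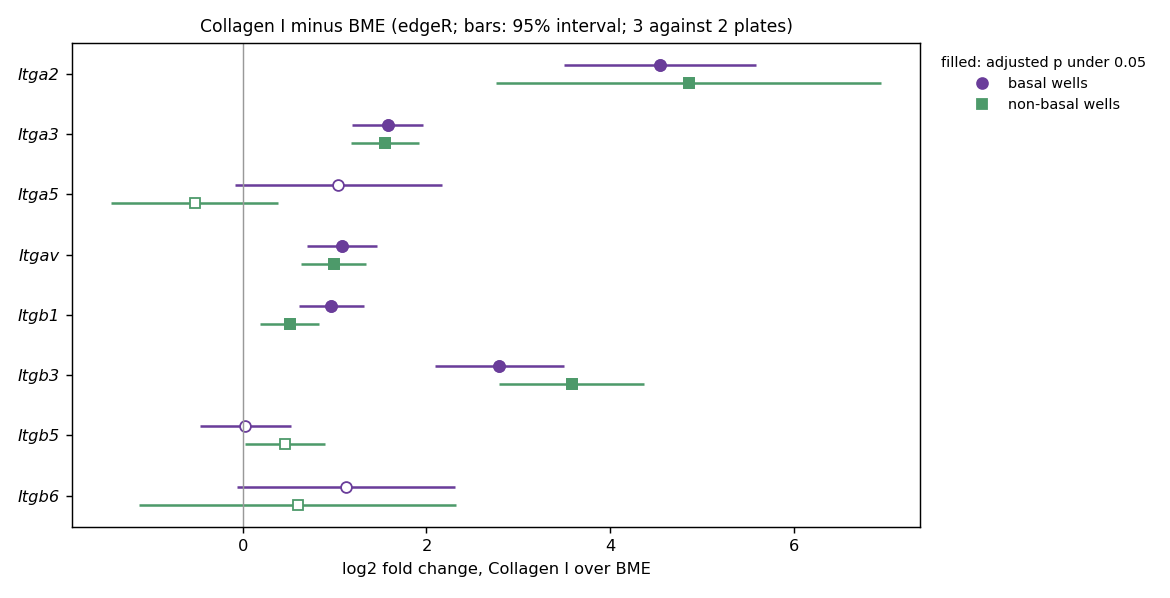
Log2 fold change of Collagen I over BME for each gene in basal wells (circles) and non-basal wells (squares), with 95% intervals from edgeR; filled symbols have an adjusted p under 0.05, although Itga2 entered the test only through its Collagen I plates. Of the other genes Itgb3 lies farthest to the right in both classes, and Itgb5 lies near 0 in basal wells (0.03).

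These changes are shares of all counts. Scaled to the ERCC spike-ins instead, the median of all genes lay at -0.44 in basal and -0.87 in non-basal wells. Of the 7 members other than Itga2, Itgb3 alone was then called, in both classes. Itga3 (log2 1.31, adjusted p = 0.13), Itgav (0.83, adjusted p = 0.39) and Itgb1 (0.66, adjusted p = 0.50) kept their direction in basal wells without passing the test, and each lay above the median of all genes. In non-basal wells Itgb1 turned to -0.29 on that scale (adjusted p = 0.71), which is still above the median there. With wells thinned to 1500 counts, 4 members passed the filter on low counts in each class, and 2 were called, Itga3 and Itgb1 in basal and Itga3 and Itgav in non-basal wells. Leaving out the cycling wells left Itga3, Itgav, Itgb1 and Itgb3 called in basal wells, and Itga3, Itgav and Itgb3 in non-basal wells.

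The second question was whether the effect of Collagen I differed between basal and non-basal wells. edgeR called 0 of 8 members for this difference and DESeq2 also 0, beside 4.29% of all genes with edgeR, and 3 members had an unadjusted p under 0.05, as had 15.6% of all genes. For Itgb1 the log2 effect was larger in basal wells by 0.39 ± 0.14 (adjusted p = 0.14), and this alone passed when BME replicate 2 was left out (0.60, adjusted p = 0.018). For Itga5 it was larger in basal wells by 1.53 ± 0.69 (adjusted p = 0.26). For Itgb3 it was smaller in basal wells, at -0.93 ± 0.40 (adjusted p = 0.23). The effect on Itga3 was the most tightly bounded, with a difference of -0.04 and a 95% interval of -0.32 to 0.24. For Itgav the interval was -0.33 to 0.40. For Itga2 it was -1.86 to 1.15, too wide to place the difference.

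The mixture of chains was then read within each plate, where it does not depend on scaling between plates. Of the counts of Itgb3, Itgb5 and Itgb6 in basal wells, Itgb3 made up 13.9%, 9.74% and 18.1% in BME and 39.3% and 58.6% in Collagen I. Itgb5 made up 76.3%, 82.8% and 76.7% in BME and 50.8% and 34.3% in Collagen I. Both groups were apart, and the share of Itgb3 was 13.9% ± 4.2 (SD, n = 3) against 49.0% ± 14 (n = 2). In non-basal wells the share of Itgb3 was 6.77% ± 2.6 against 38.9% ± 14, and that of Itgb5 was 89.3% ± 3.2 against 57.9% ± 15. Each of these comparisons had p = 0.1 (exact permutation test over plates, two-sided), the smallest p that 3 plates against 2 allow. The share of Itgb6 was 7.49% ± 2.3 against 8.49% ± 1.9 in basal wells and overlapped between the groups (exact permutation p = 0.6).

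**Figure D3:**
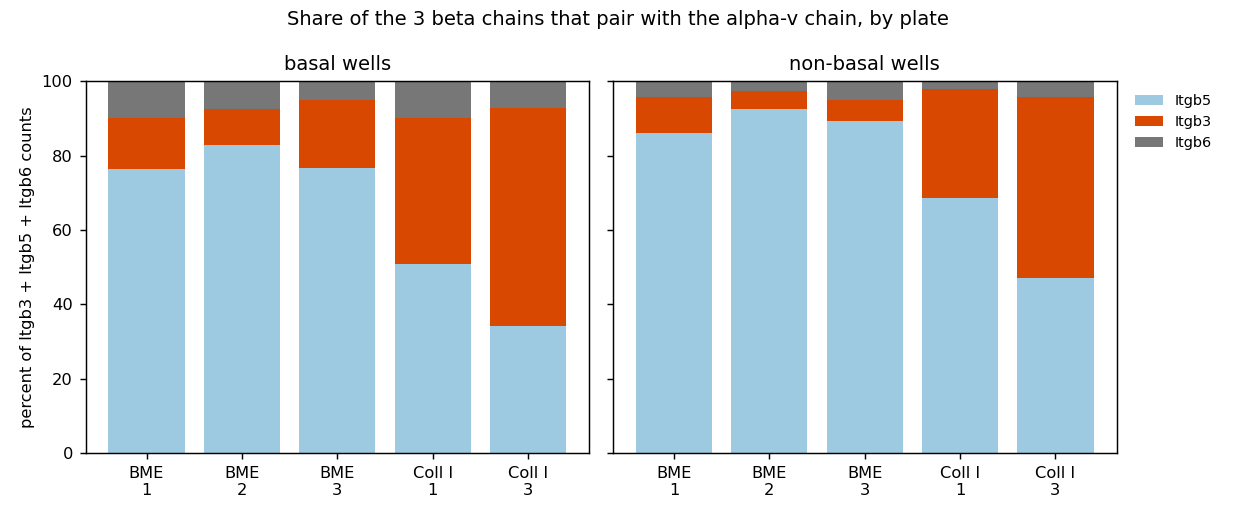
Percent of the summed Itgb3, Itgb5 and Itgb6 counts that each gene takes in every plate, in basal wells (left) and non-basal wells (right). The Itgb3 part is between 9.74% and 18.1% in basal wells of the BME plates and 39.3% and 58.6% in those of Collagen I.

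Among the 4 alpha chains, Itga3 was the main one in every plate and Itga2 rose from a trace. In basal wells Itga2 took 0.57% ± 0.30 (SD, n = 3) of the alpha counts in BME and 4.70% ± 0.86 (n = 2) in Collagen I, with no overlap. The share of Itga3 was 61.0% ± 6.6 against 66.4% ± 2.5 and overlapped. The share of Itgav was 36.3% ± 6.2 against 27.4% ± 1.5, with the plates apart. In non-basal wells Itga5 took 4.67% ± 1.3 in BME and 1.31% ± 0.22 in Collagen I, with plates apart. The exact permutation test gave p = 0.1 for the shares of Itga2 and of non-basal Itga5, 0.2 for basal Itgav and 0.4 for basal Itga3, where 0.1 is the smallest possible.

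The share of wells with at least 1 count depends on depth, so wells were thinned to 1500 counts, which left 264 basal wells in BME and 174 in Collagen I and dropped 38 and 52 shallower ones. Itga2 was then found in 0 of 264 basal wells of BME, which allows a share of up to 1.14% of wells with a count at this depth (counting error only, and no limit on the wells that express it, since 14 of 302 wells held a count at their own depth), and in 8.22% and 3.96% of those of Collagen I replicates 1 and 3. Itgb3 was found in 1.81% ± 1.6 (SD, n = 3) against 10.7% ± 1.6 (n = 2). Itga3 was found in 27.7% ± 12 against 54.4% ± 8.3, and Itgb1 in 43.8% ± 2.7 against 62.8% ± 6.2, each with plates apart. Itgav (24.4% ± 2.4 against 28.01% ± 8.8) and Itgb5 (12.7% ± 2.8 against 7.69% ± 3.1) overlapped between the groups. In exact permutation tests the p adjusted over the 8 members was 0.2 for Itga2, Itgb1 and Itgb3 and 0.32 for Itga3, and the design cannot go below 0.1 before adjustment. Without thinning, the deeper BME wells gave a higher share for Itga3 (76.8% against 67.4%) and Itgb1 (85.7% against 76.3%), while Itga2 (4.76% against 14.0%) and Itgb3 (12.8% against 18.7%) were still found more often in Collagen I.

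The third question was which chains differ between basal and non-basal wells of the same plates. The class was set by the 3 keratins alone, and 30 of the 302 basal wells in BME and 31 of the 226 in Collagen I rested on 1 keratin count. In BME, 7 of 8 members were called higher in basal wells and 0 lower (edgeR with the plate as a block), beside 18.0% of all genes. For Itgb6, 3 of 3 BME plates reached the filter level in basal wells and 0 of 3 in non-basal wells. For Itga2, 0 of 3 did in either class. The calls of Itgb6 and Itga2 therefore add no support to this count. In Collagen I, 3 of 8 were called higher and 0 lower, beside 4.35% of all genes, and 1 of the 3, Itga2, had passed the filter on low counts mainly through the basal wells of Collagen I. With basal wells required to hold at least 3 keratin counts, 7 and 3 members were again called.

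Itga2 leaned most to the basal wells. In BME the log2 difference was 2.94 ± 0.83 (adjusted p = 0.0054), with 16 counts in basal and 4 in non-basal wells. In Collagen I it was 2.59 ± 0.60 (adjusted p = 0.0044), with 64.4 against 2.36 CPM in replicate 1 and 37.3 against 16.9 CPM in replicate 3. The Collagen I call was lost without Collagen I replicate 1 (1.05, adjusted p = 0.56) and without the cycling wells (2.02, adjusted p = 0.085). Itga2 reached the filter level in both Collagen I plates for basal wells and in 1 of 2 for non-basal wells. The BME call was lost without BME replicate 1 (2.62, adjusted p = 0.097) and without the wells with fibroblast counts (2.86, adjusted p = 0.068).

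The partner Itgb1 and the laminin receptor chain Itga3 were called in both matrices. Itga3 was higher in basal wells of all 5 plates, by 0.65 ± 0.08 on the log2 scale in BME (adjusted p = 6.0e-08) and 0.61 ± 0.11 in Collagen I (adjusted p = 0.00035). Itgb1 was higher by 0.23 ± 0.08 in BME (adjusted p = 0.023) and by 0.62 ± 0.12 in Collagen I (adjusted p = 0.00055). The BME call of Itgb1 was kept in only 9 of 17 alternatives, and the difference shrank to 0.07 without BME replicate 2 (adjusted p = 0.67). It was also lost with RLE scaling, with DESeq2, with no filter, with thinned wells and with no plate block. The same held without the top 5% of wells by counts and without the cycling wells. Without Collagen I replicate 1, 0 of 8 members were called in Collagen I, with Itga3 at 0.43 (adjusted p = 0.18) and Itgb1 at 0.57 (adjusted p = 0.095). The Collagen I call of Itga3 was also lost without the cycling wells (0.43, adjusted p = 0.088), with wells thinned to 1500 counts (0.44, adjusted p = 0.13) and with no plate block (0.61, adjusted p = 0.17).

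Among the alpha v partners, Itgb3 and Itgb6 leaned most to the basal wells, but Itgb6 had passed the filter on low counts mainly through basal wells. In BME, Itgb3 was higher by 1.65 ± 0.27 (adjusted p = 7.7e-06) and Itgb6 by 1.43 ± 0.40 (adjusted p = 0.0049). A single well gave 14 of the 24 basal Itgb3 counts of BME replicate 1. At the wells' own depth, 11.5% of basal and 13.2% of non-basal wells of that plate held Itgb3. In BME replicates 2 and 3 the share was higher in basal wells, at 9.65% against 4.82% and 17.4% against 6.63%. Itgav was higher by 0.33 ± 0.09 (adjusted p = 0.0045) and Itgb5 by 0.41 ± 0.11 (adjusted p = 0.0031). In Collagen I none of these 4 passed the test, with log2 differences of 0.72 ± 0.30 for Itgb3 (adjusted p = 0.16), 1.86 ± 0.87 for Itgb6 (adjusted p = 0.23), 0.37 ± 0.15 for Itgav (adjusted p = 0.17) and -0.08 ± 0.25 for Itgb5 (adjusted p = 0.93). Whether these differ from BME is the test of the difference given above, which none passed. Itga5 was the 1 member with a lower level in basal wells of BME, at -0.64 ± 0.26 (adjusted p = 0.052). This difference passed the test in 3 of 16 alternatives. They were the fits without BME replicate 3 (-1.09, adjusted p = 0.0051), with RLE scaling and with no filter on low counts. In Collagen I its difference was 0.90 ± 0.64 (adjusted p = 0.49).

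The calls depended on which wells were used in both matrices. In Collagen I, leaving out the cycling wells left Itgb1 as the 1 member called, beside 3.15% of all genes called higher. In BME 41.1% ± 7.7 (SD, n = 3) of basal wells and 61.5% ± 6.0 of non-basal wells were cycling. Without the cycling wells, 2 of 8 members were called, Itga3 and Itgb3, beside 10.2% of all genes, and Itgb1 (-0.02) and Itgb5 (-0.04) lost their difference. Without BME replicate 2, 3 members were called higher beside 13.0% of all genes, without BME replicate 1, 5 beside 14.0%, and with DESeq2, 4 beside 1196 of 10862 genes. With wells thinned to 1500 counts, 5 members passed the filter on low counts and 0 were called, beside 7.14% of all genes (Itga3 at 0.46, adjusted p = 0.19).

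**Figure D4:**
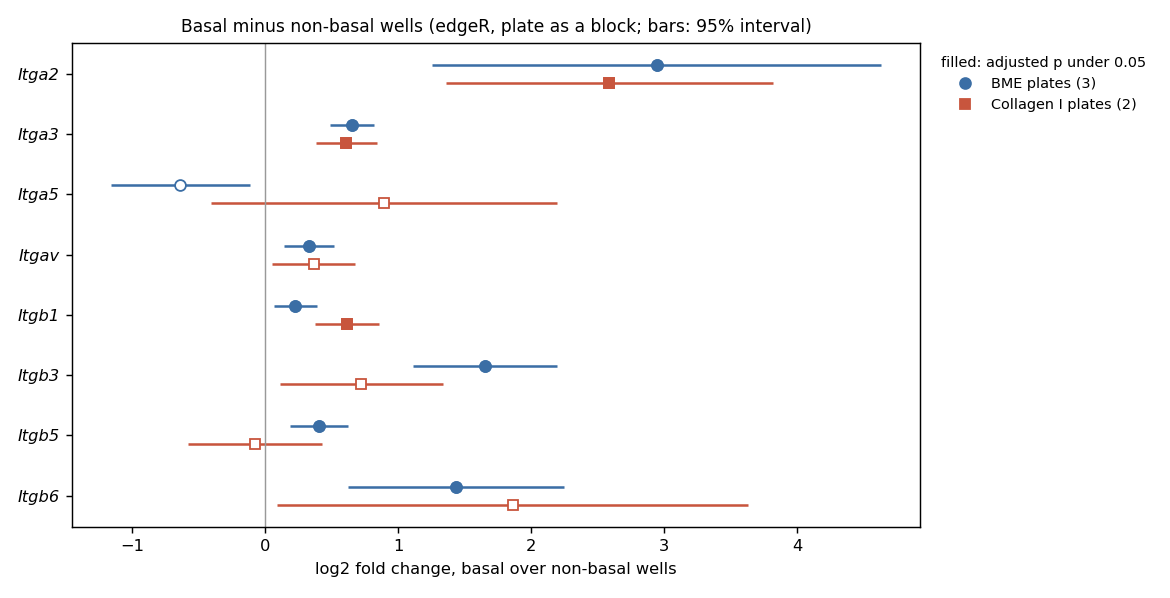
Log2 fold change of basal over non-basal wells of the same plates for each gene in BME (circles) and Collagen I (squares), with 95% intervals from edgeR; filled symbols have an adjusted p under 0.05. All genes but Itga5 are filled in BME, and Itga2, Itga3 and Itgb1 are filled in Collagen I. Itga2 and Itgb6 entered the test mainly through basal wells.

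Split more finely by keratin level, Itgb1 and Itga3 had their highest mean in the wells richest in keratins in both matrices. So had Itgav, Itgb5, Itgb3 and Itga2, but not Itga5 and Itgb6. Itgb1 in Collagen I was 453 CPM in wells under 2 keratin counts per 10000, 503 CPM at 2 to 5, 609 CPM at 5 to 20 and 845 CPM at 20 or more (mean of 2 plates). In BME it was 322, 295, 352 and 426 CPM (mean of 3 plates), so that it was not in order at the low end. Itga3 was 443, 443, 574 and 843 CPM in Collagen I and 153, 183, 228 and 259 CPM in BME. Itga2 stayed at 0.26 to 3.52 CPM in every keratin group of BME and reached 66.7 CPM, the mean of 51.1 and 82.3 CPM, in the highest group of Collagen I. Itgb3 in the highest keratin group varied widely between plates, from 36.0 to 148 CPM in Collagen I and from 9.64 to 34.6 CPM in BME. These are descriptions, with no test.

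**Figure D5:**
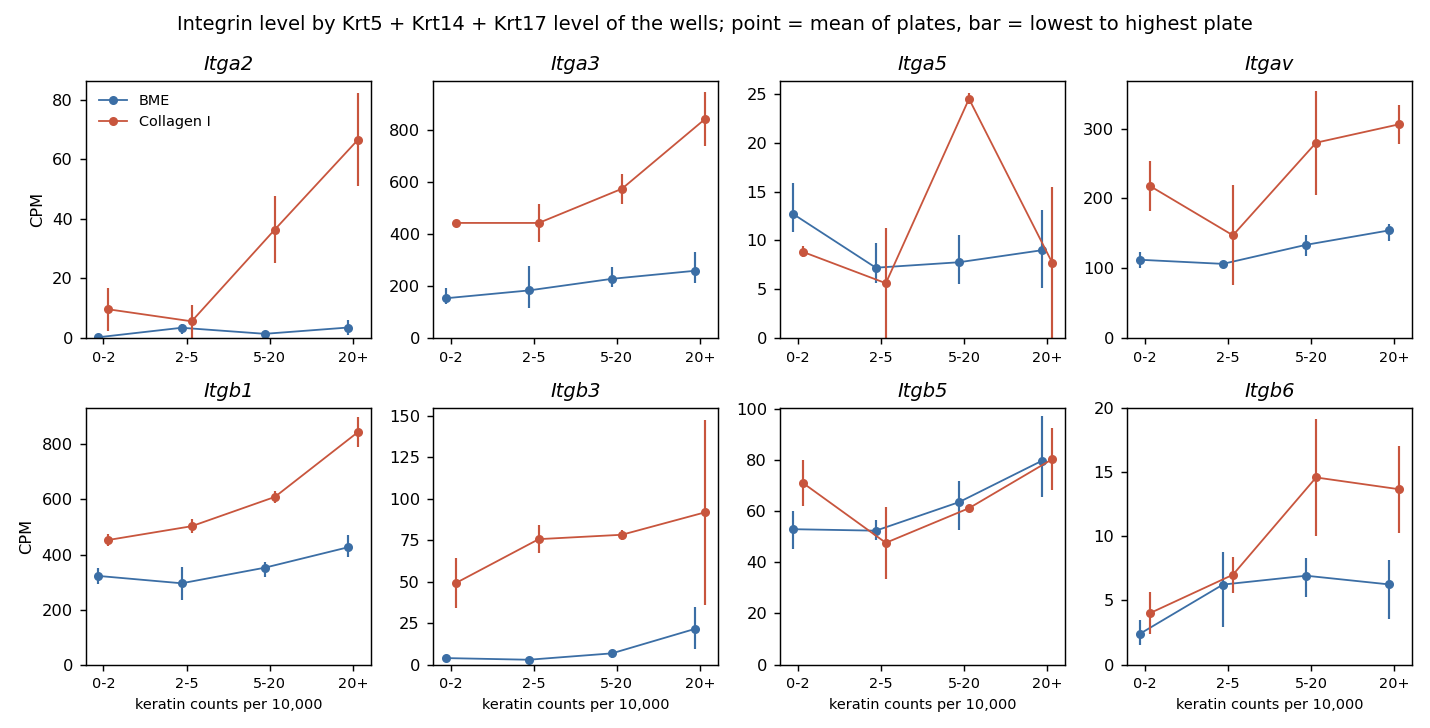
CPM of each gene in wells grouped by the summed Krt5, Krt14 and Krt17 counts per 10000, for BME (blue, 3 plates) and Collagen I (red, 2 plates); points are means of plates and bars run from the lowest to the highest plate. Itga3 and Itgb1 are higher in Collagen I in all 4 groups and highest at 20 or more, and Itgb5 overlaps between the matrices except in the lowest group.

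Genes whose level went most closely with each member were looked for over the 10 sums of plate and class, among 6513 genes with a mean of at least 20 CPM. The 10 sums come from 5 plates, and depth and matrix change together, so Pearson's r of log2(CPM + 1) is a description only. Nearest to Itga2 were Suco (r = 0.97), Col8a1 (0.96) and Cflar (0.96), and nearest to Itgb3 were Sh3kbp1 (0.99), Ahdc1 (0.97) and Zswim6 (0.97). Itga3 went with Usp22 (0.99), 4931406P16Rik (0.99) and Rab6a (0.99), and Itgav with Rnf145, Clybl and Rsf1 (all 0.97). Nearest to Itgb1 were Myl12a, a light chain of myosin, the transcription factor gene Sox9, and Rit1 (all 0.98). Nearest to Itgb6 were A130010J15Rik (0.97) and the actin regulators Wdr1 and Arpc5 (both 0.95). Itgb5 (Fah and Fbxo38, both 0.90) and Itga5 (Zfp511, Ccm2 and Siah2, 0.83 to 0.86) had no neighbour as close among those given. Among the members, Itga3 went with Itgb3 (r = 0.94), Itgav (0.94), Itgb1 (0.94) and Itga2 (0.93), while Itga5 and Itgb5 did not go together (-0.15).

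Genes of many proteins that these receptors bind were transcribed by the cells, but Vtn (vitronectin) was not among those that could be tested. Of 27 ligand genes 21 could be tested in basal wells. Of these 14 were called higher in Collagen I and 1, Postn (periostin), lower, beside 10.8% and 8.31% of all genes. Their median log2 change was 1.24. Tnc (tenascin C) went from 35.8, 58.2 and 57.5 CPM to 926 and 879 CPM, a log2 fold change of 4.19 (adjusted p = 3.5e-12). Fn1 (fibronectin) rose by 4.10 (adjusted p = 3.8e-10) and Spp1 (osteopontin) by 3.90 (adjusted p = 3.4e-10). Col1a1, a chain of collagen I and itself among the fibroblast markers, rose by 3.77 (adjusted p = 1.7e-06), from 3.92 to 7.74 CPM in BME to 34.7 and 125 CPM. In non-basal wells 16 of 22 tested ligand genes were called higher and 2 lower, beside 14.1% and 13.9% of all genes.

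Of the 17 other integrin chains, 7 could be tested in basal wells, of which 3 were called higher and 0 lower. They were Itga1, a second collagen-binding alpha chain, and the laminin receptor chains Itgb4 (log2 0.94, adjusted p = 0.00051) and Itga6 (0.86, adjusted p = 0.0016). Itga1 was at 1.94, 1.43 and 2.75 CPM on the BME plates, against 7.4 and 13.3 CPM in Collagen I, the latter from 3 and 5 counts. It reached the filter level only through the Collagen I plates, so its call adds no support to this count. Of 26 genes of the adhesion machinery on the inner side of integrins, 24 could be tested, and 12 were called higher and 0 lower in basal wells. Among them were the kindlin gene Fermt2 (1.36, adjusted p = 0.00051), Zyx (zyxin, 1.10, adjusted p = 0.00021) and the adaptor Bcar1 (1.04, adjusted p = 0.0033). Of 15 membrane partners and other receptors, 14 could be tested, and 9 were called higher and 0 lower. They were led by Plaur, the urokinase receptor (2.58, adjusted p = 0.00075), the tetraspanin Cd82 (2.00, adjusted p = 9.9e-06), Bsg (basigin, 1.53, adjusted p = 7.3e-06) and the syndecan Sdc4 (1.08, adjusted p = 0.00015). Over all genes 10.8% were called higher and 8.31% lower in basal wells. The medians of these lists were 0.32, 0.59 and 0.61, against -0.03 over all genes. In non-basal wells 3 of 8, 14 of 24 and 8 of 14 genes of these lists were called higher and 0, 3 and 0 lower. The shares over all genes there were 14.1% and 13.9%.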

How the data were processed

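Organoid cells sorted into 5 plates of 384 wells (3 BME, 2 Collagen I, day 5) were analysed, with samples grouped by their titles. The authors deposited expected counts, that is, transcripts per gene and well estimated from distinct UMIs with a correction for UMI saturation and not normalized. The correction fits UMIs of 6 bases (99.59% to 99.95% of nonzero values within 0.02), whereas the labels state 4, and it raised the members' counts by at most 0.19%. The submitters' processing notes name BWA and mm10, without their versions.

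Spike-ins were set aside, and a well was kept if it exceeded 500 counts, stayed below 8000 genes and had under 10% mitochondrial counts. No clustering, no removal of a poor cluster and no doublet caller were used. Counts were summed per plate and class (375681 to 9084335 per sum), rounded, filtered with filterByExpr and compared with edgeR 4.0.16 (TMM, quasi-likelihood, Benjamini-Hochberg over all genes) in R 4.3.3, where the plate is the replicate. The test was checked on simulated data with known changes. Of 2-fold changes it called 41% in basal and 58% in non-basal wells for Collagen I against BME. Between classes it called 92% in BME and 45% in Collagen I, and for the difference of effects 36%. Counts of calls in these comparisons were thus reached with unequal power. The SE of a log2 change is its size over the square root of F. Shares were compared with exact permutation tests over plates (scipy 1.17.1). Positions are from GENCODE M21, and upstream sequences from RefSeq (GRCm38.p6). Alternatives were DESeq2 1.42.0, other scalings, no filter, other limits on wells, thinning and leaving out plates. Intervals from counts cover counting error only.

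The members and lists were chosen with earlier results of these data known. Named genes are the 8 members, the 3 nearest in pattern to each, and per list up to 4 genes past the test with the largest change in basal wells. Some genes that this rule selects are not reported here. Postn was named after its value was seen.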

Additional observations from a re-analysis of the deposited data

Results flagged for a closer look

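No member passed the test of whether the Collagen I change was unequal in basal and non-basal wells. Of the genes named from the lists, 4 did (edgeR interaction, adjusted p under 0.05), beside 4.29% of all genes. These names were picked by the size of the change in basal wells, which itself enters this difference, so the count says nothing of the lists. Fn1 (fibronectin) changed more in basal wells, by 1.68 ± 0.22 (SE) on the log2 scale (adjusted p = 3.2e-06). It was 76.5, 95.1 and 195 CPM in basal wells of BME and 1837 and 2232 CPM in those of Collagen I, against 397, 317 and 331 CPM and 1754 and 1843 CPM in non-basal wells. Spp1 (osteopontin) also changed more in basal wells, by 1.77 ± 0.18 (adjusted p = 6.0e-08). Itga6, an alpha chain of laminin receptors, changed less in basal wells, at -0.76 ± 0.18 (adjusted p = 0.0081), with 134, 158.5 and 162 CPM in basal wells of BME and 250 and 285 CPM in those of Collagen I. Its non-basal levels were 78.5, 75.7 and 76.3 CPM in BME and 243 and 199 CPM in Collagen I. Bsg (basigin) likewise changed less in basal wells, at -0.77 ± 0.12 (adjusted p = 8.5e-05). The causes of these differences were not tested.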

How the results depend on the processing

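Itgb3 stayed called higher in Collagen I in basal wells in each of the 17 alternatives in which it passed the filter, and Itga3 in 17 of 18. Over all genes, the calls for Collagen I against BME were 3765 in all kept wells, 1967 in basal and 3106 in non-basal wells. They fell to 1486, 633 and 854 with wells thinned to 1500 counts and to 1351, 513 and 2065 with scaling to spike-ins, where 15.9%, 37.23% and 8.91% of calls were higher against 48.8%, 56.5% and 50.3%. Non-basal calls were 1983 without cycling wells. Leaving out 1 plate gave 1827 to 4569, 818 to 2266 and 1337 to 3690. Between classes there were 3835 calls in BME, 2320 with DESeq2, 458 thinned, 1818 without cycling wells and 2298 with no plate block. In Collagen I there were 833, with 299 thinned, 540 without cycling wells, 422 with no plate block and 275 to 965 without 1 plate. The difference of effects gave 466, and 249 with DESeq2, 113 thinned, 110 with no plate block and 200 to 492 without 1 plate.

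Values that changed sign were small or not called. For Collagen I against BME in all wells, Itga5 was at -0.065 with no filter, -0.049 without cycling wells, -0.66 with spike-ins and -0.12 to 0.12 without 1 plate, and Itgb5 at -0.0073 thinned and -0.36 with spike-ins. In basal wells Itgb5 was at -0.0068 with library size only, -0.061 with no filter, -0.68 thinned, -0.0099 without the top 5% of wells, -0.31 with spike-ins and -0.10 to 0.11 without 1 plate. In non-basal wells spike-ins gave -0.29 for Itgb1, -0.32 for Itgb5 and -0.32 for Itgb6, and Itgb6 was at -0.061 to 1.24 without 1 plate. Between classes, leaving out cycling wells in BME gave -0.024 for Itgb1 and -0.038 for Itgb5. In Collagen I thinning gave -0.19 for Itgav, and at least 3 keratin counts gave 0.012 for Itgb5. For the difference of effects Itga3 was at 0.013 with RLE, 0.0041 with library size only, 0.011 with DESeq2, 0.13 without fibroblast counts, 0.060 without the top 5%, 0.053 without cycling wells, 0.047 with limits of 10 and 1, and -0.22 to 0.093 without 1 plate. Itgav was at -0.48 thinned, -0.091 without cycling wells and -0.11 to 0.21 without 1 plate, Itga2 at 0.097 without the top 5% and -1.92 to 1.72 without 1 plate, and Itgb6 at -0.29 to 1.15. The causes were not tested.

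In percentage points of wells with a count, Collagen I minus BME at the wells' own depth was -9.37 for Itga3, -9.26 for Itga5, -25.0 for Itgav, -9.40 for Itgb1 and -7.36 for Itgb6 in basal wells, and -6.78 for Itga3, -18.7 for Itga5, -20.8 for Itgav, -5.62 for Itgb1 and -31.7 for Itgb5 in non-basal wells. Non-basal Itga2 ranged from -0.19 to 2.49 without 1 plate.

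For plates of the same replicate number, the deviations from the group mean had r = -0.02 and 0.02 over 6513 genes. Only 2 numbers are shared, and the 2 Collagen I plates deviate from their mean as mirror images. These values therefore cannot decide whether plates were paired. With the replicate block the calls were 3766, 1958 and 3006, and non-basal Itgb1 was no longer called (0.43, adjusted p = 0.072). Rare members rest on few counts, in basal wells 16 for Itga2 in BME and 13 for Itga5 and 11 for Itgb6 in Collagen I.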

Other observations

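Wells between the limits (2 to 5 keratin counts per 10000) entered no comparison of classes. In the 105 such wells of BME, Itga2 held 9 counts in 7 wells, at 3.44 ± 1.9 CPM (SD, n = 3), and Itgb3 8 counts in 6 wells, at 2.92 ± 1.8 CPM. In the 53 such wells of Collagen I, Itga2 held 2 counts, both in 1 well of 1 plate, and Itgb3 23 counts in 13 wells, at 75.6 ± 12 CPM (n = 2). These sums were not tested.

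Itga2b, the alpha chain of platelets that pairs with beta 3, held 6, 2 and 7 counts on the BME plates and 8 and 4 on the Collagen I plates. Pf4 and Gp9 held at most 4 and 2 counts on a BME plate and 0 on the Collagen I plates. Since those plates were far shallower, that 0 says little. The 3 markers of megakaryocytes summed to 0.25 to 1.44 CPM in BME and 3.90 to 5.59 CPM in Collagen I over all kept wells.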
